A study of Caenorhabditis elegans with 2 samples.

Results

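The 46 genes described here encode guidance cues, their receptors, the cytoplasmic proteins that act below them and the adhesion and matrix proteins that axons and migrating cells use in the nematode Caenorhabditis elegans. They were taken by name from a list, and all 46 matched one of the 19973 nuclear protein-coding genes of the Ensembl annotation of WBcel235 (ce11). This list, and the list of further genes used below, were chosen with earlier results of these data known. The measurement was chromatin immunoprecipitation sequencing (ChIP-seq) of MLS-2, which belongs to the HMX/NKX5 class of homeodomain transcription factors, and the files used were the authors' peak lists. The series had a single group of 2 biological replicates, so it holds no comparison between conditions. Both were whole embryos of mixed stages and pooled sexes of strain OP645, collected 2 h after synchronization by egg bleaching. The strain carries unc-119(tm4063) on chromosome III and the insertion wgIs645, a stable transgene that expresses MLS-2 with GFP and FLAG at its C terminus, and the precipitation used an antibody against GFP. The sequence that drives the transgene is not given in the sources used here, and no unprecipitated or untagged control was analysed here. Because whole embryos were used, the cells in which a region was bound cannot be told.

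Guidance cues such as netrin, Slit, ephrins and semaphorins are secreted or held on membranes, and growing axons and moving cells read them through DCC, UNC5, Robo, Eph and plexin receptors. The receptors act on Rac GTPases, exchange factors and actin and microtubule regulators, while cadherins, L1-type immunoglobulin proteins and proteoglycans hold cells to each other and to the matrix. Many of these genes were found in worms through uncoordinated movement (unc), sensory axon (sax), body shape (vab) or migration (mig) defects, and many are long and make several transcripts. MLS-2 itself is known for roles in the postembryonic mesoderm, in glia of the head and in sensory neurons.

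The authors' optimal list, thresholded by the irreproducible discovery rate (IDR), held 1925 peaks. Each peak has a summit and a signal, the authors' own score, which has no stated scale and was used here to rank peaks within a list. Signals in the optimal list ran from 212 to 2651 with a median of 290. The read depth per sample is unknown, so no precision can be derived from it. A promoter window covered the 1000 bases before and the first 100 bases after any 5′ end of a gene's protein-coding transcripts. Coordinates are in ce11, counted from 1. Intervals on shares are 95% exact binomial intervals, cover counting error only and treat genes as independent. They do not cover the choice of the genes with earlier results known, and no test against other genes was made.

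MLS-2 summits lay at 28 of the 46 guidance and adhesion genes, mostly outside the promoter window. Of the 46 genes, 8 (17.4%, interval 7.82 to 31.4) had a summit in the promoter window, beside 5.64% of all protein-coding genes. Within 5 kb of a 5′ end, on either side, 27 genes (58.7%, interval 43.2 to 73) had one, beside 16.8% of all genes. In an intron, 14 genes (30.4%, interval 17.7 to 45.8) had one, beside 2.27%. Counting either of the last 2 places, 28 of 46 genes (60.9%) had a summit and 18 had none, against 17% of all genes with one. A total of 45 distinct summits served these 28 genes, and 13 genes (28.3%) had 2 or more, beside 3.31% of all genes. No summit was shared between 2 of the 46 genes.

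**Figure D1:**
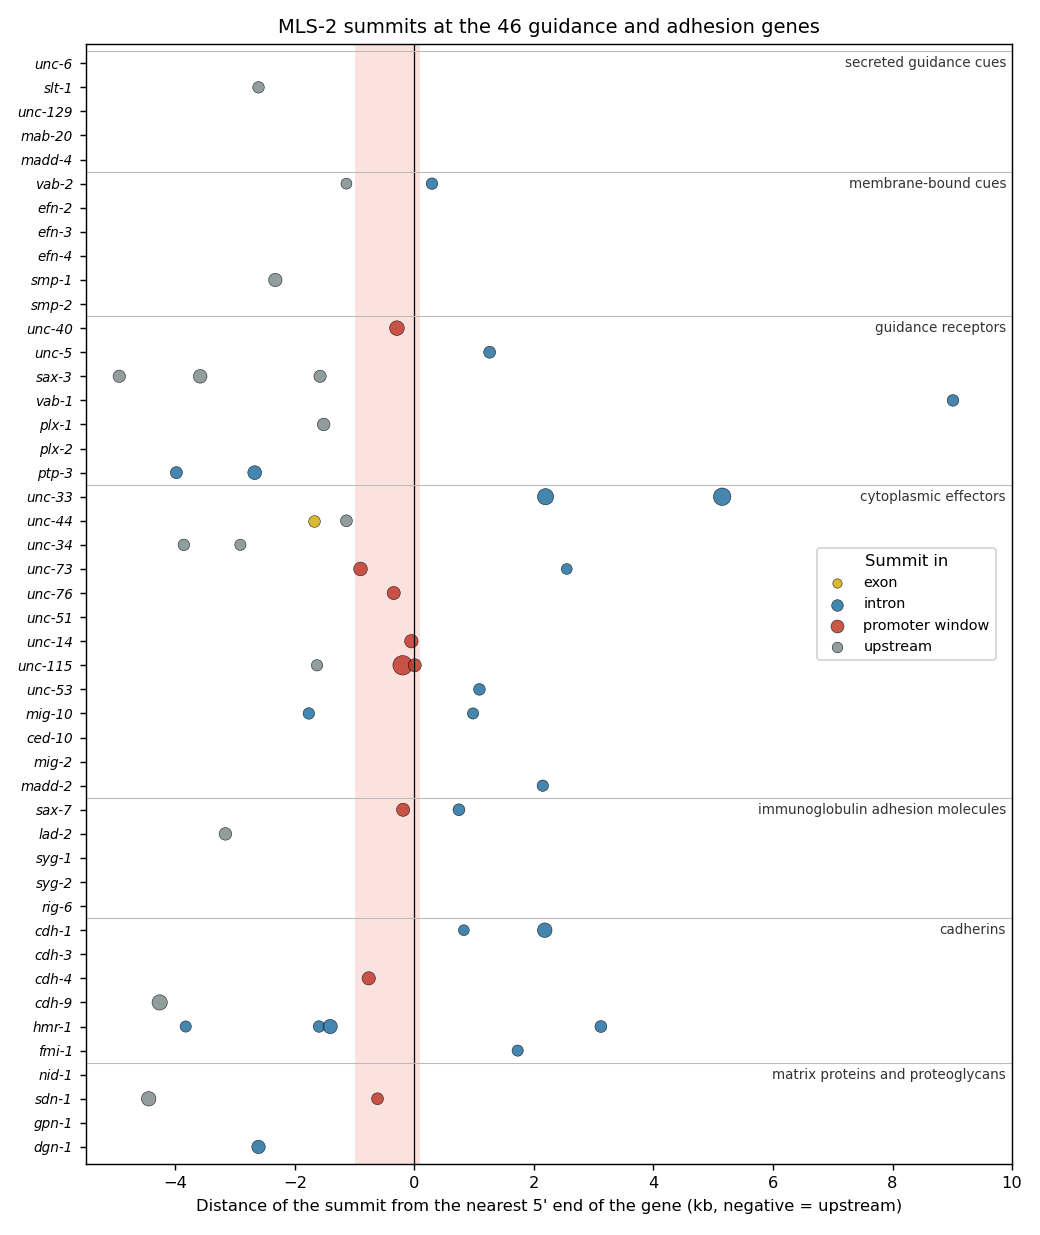
Position of each optimal-list summit at the 46 genes, as distance in kb from the nearest 5′ end of that gene (negative is upstream), with genes grouped by role. Point area is proportional to the pooled peak signal, colour gives the place of the summit, and the shaded band is the promoter window; of 45 summits, 9 lie in that band and 18 genes have no point.

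The 46 genes were longer than most, with longer upstream stretches and more 5′ ends. Their median span was 8.96 kb, against 2.03 kb for all protein-coding genes, and the median stretch from the outermost 5′ end to the next protein-coding gene upstream was 5.95 kb, against 0.941 kb. They had a mean of 2.85 separate 5′ ends, against 1.47. Per length, their promoter windows held 81.5 summits per Mb (9 summits in 0.11 Mb), against 37.6 per Mb in the promoter windows of all genes. The promoter windows of 84 further guidance, adhesion and matrix genes held 82.2 per Mb, close to those of the 46. Their introns held 52.6 per Mb (22 summits in 0.418 Mb), against 25.7 per Mb in the introns of the 84 and 16.4 per Mb in those of all genes. The nuclear genome as a whole held 19.2 per Mb. These densities are descriptions of 1 pooled list and were not tested.

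Among genes of 5 kb or more, the shares were also higher than those of all genes of the same span class. Of the 21 guidance and adhesion genes of 10 kb or more, 17 (81.0%) had a summit within 5 kb, against 292 of 998 genes of that span (29.3%). An intron summit was found at 11 of these 21 (52.4%), against 18.0% of the 998, and a promoter summit at 4 (19.0%), against 10.0%. Within 5 kb or in an intron, 9 of these 21 (42.9%) had 2 or more summits, against 8.72% of the 998. Of 19 guidance and adhesion genes between 5 and 10 kb, 9 (47.4%) had a summit within 5 kb, against 23.9%, and 3 (15.8%) an intron summit, against 5.95%. Only 6 of the 46 were shorter than 5 kb, and sdn-1 alone of these had a summit within 5 kb.

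**Figure D2:**
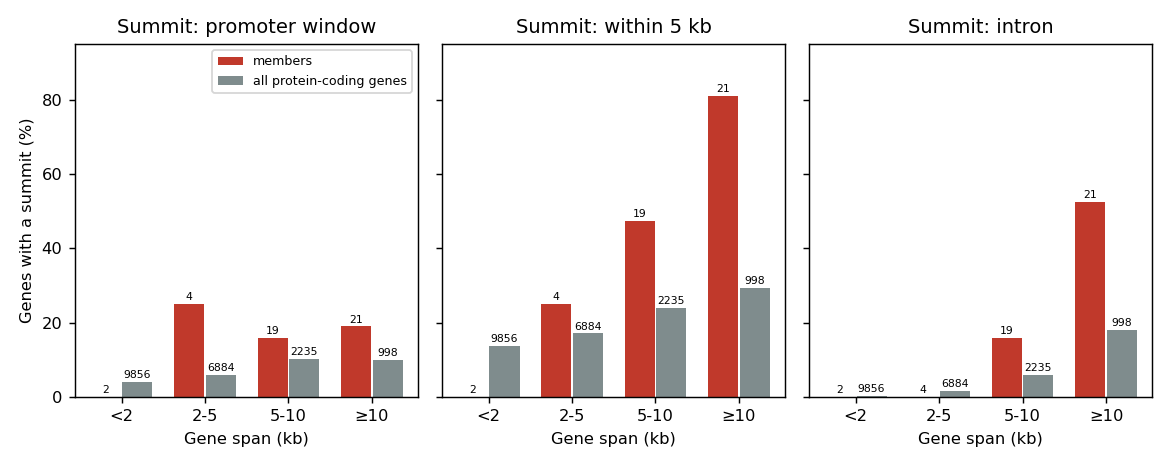
Share of genes (%) with an optimal-list summit in the promoter window, within 5 kb and in an intron, by gene span in kb, for the 46 guidance and adhesion genes (red) and all protein-coding genes (grey); the number above each bar is the number of genes. In the class of 10 kb or more the red bars stand at 19.0%, 81.0% and 52.4% and the grey bars at 10.0%, 29.3% and 18.0%.

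Each replicate's own list gave similar member counts. With the 1925 strongest regions of replicate 1 in place of the optimal list, 8 of the 46 genes had a promoter summit (17.4%, beside 5.69% of all genes), 29 had a summit within 5 kb (63.0%, beside 16.9%) and 16 an intron summit (34.8%, beside 2.31%). With those of replicate 2, the counts were 7 (15.2%, beside 5.25%), 24 (52.2%, beside 16.6%) and 14 (30.4%, beside 2.29%). A promoter summit in both replicate lists and the optimal list was found at 6 genes, a summit within 5 kb at 22 and an intron summit at 11. Over all 19973 genes the same counts were 803, 2562 and 323. Of the 45 summits, 40 had a summit within 100 bp among those regions of replicate 1, 33 among those of replicate 2 and 28 in both (62.2%), beside 63.4% of all 1925 optimal peaks. None of the 45 was missing from both. Against the whole replicate lists of 30000 regions, all 45 were found in replicate 1 and 43 in replicate 2. Over the 43 found in both lists, the ranks in the replicates had a Spearman rho of 0.39, beside 0.67 over the 1810 optimal peaks found in both. The 2 rho values cover unlike ranges of signal, 215 to 696 for the 45 summits and 212 to 2651 for all optimal peaks. Their difference was not tested. Both are descriptions across peaks that were chosen on the same libraries.

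**Figure D3:**
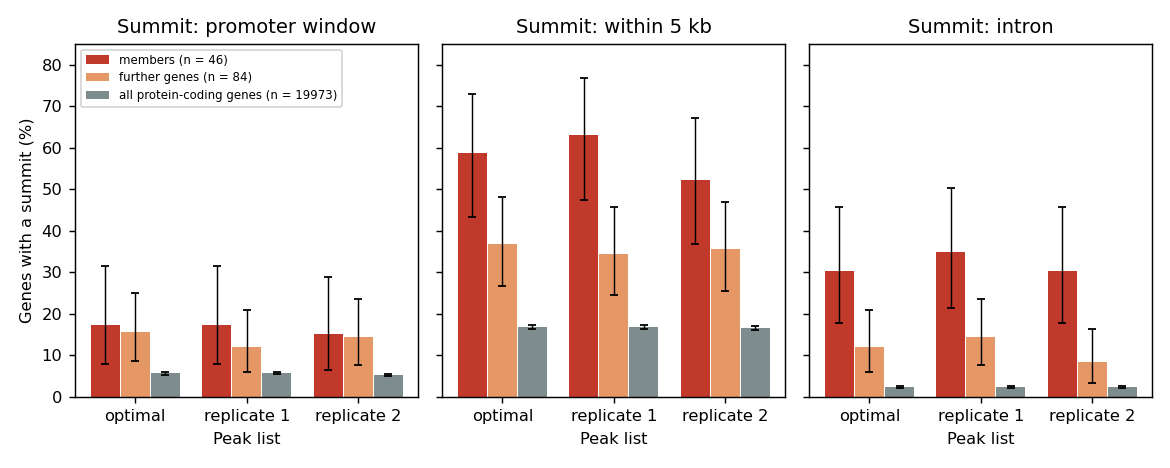
Share of genes (%) with a summit in the promoter window, within 5 kb and in an intron, in the optimal list and in the 1925 strongest regions of each replicate, for the 46 guidance and adhesion genes, 84 further genes of the same kind and all 19973 protein-coding genes. Bars start at 0, error bars are 95% exact binomial intervals, and the bars for the 46 genes stand above those for all genes in each of the 9 comparisons shown.

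Of 5 secreted cue genes, 1 had a summit in the optimal list, beside 17% of all genes, so the count is near the background. It was slt-1, which encodes Slit, with a summit 2607 bp upstream of its 5′ end, with a signal of 244 in the pooled list, 170 in replicate 1 and 72.1 in replicate 2. It ranked 1420 in the pooled list, 1355 in replicate 1 and 2456 in replicate 2, so that replicate 2 alone would not place it among its 1925 strongest regions. The nearest summit was 63.8 kb from unc-6 (netrin), 78.0 kb from unc-129 (a TGF-β family ligand), 67.8 kb from mab-20 (a secreted semaphorin) and 35.9 kb from madd-4 (punctin). The promoter window of mab-20 held a pooled region of rank 2337 and signal 194, below the lowest optimal signal of 212. For madd-4 the strongest was rank 4008, for unc-6 rank 15380, and for unc-129 the pooled list of 30000 held none.

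Of 6 membrane-bound cues, 2 had a summit, beside 17% of all genes, and neither was in a promoter window. The role groups are small, and differences between them were not tested. The gene vab-2, which encodes an ephrin, had one in its first intron, 295 bp downstream of the 5′ end, with a signal of 243 pooled, 169 in replicate 1 and 76.9 in replicate 2. The replicate 2 value comes from a region whose summit was 205 bp away. A second summit lay 1136 bp upstream of vab-2 (signal 219 pooled, 163 and 50.3 in the replicates). The transmembrane semaphorin gene smp-1 had a summit 2326 bp upstream of its 5′ end, with a signal of 330 pooled, 210 in replicate 1 and 135 in replicate 2. Of these 3 summits, that of smp-1 was in the strongest regions of both replicates and the pair at vab-2 only in those of replicate 1. The other ephrin genes, efn-2, efn-3 and efn-4, and smp-2 had their nearest summits 26.6 to 72.4 kb away. The spans of efn-2 (1.94 kb) and efn-3 (1.58 kb) were the shortest of the 46.

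Of 7 guidance receptor genes, 6 had a summit, beside 17% of all genes. The exception was plx-2 (plexin), with its nearest summit 12.4 kb away. Only unc-40, the DCC-type netrin receptor gene, had one in the promoter window. That peak (chrI:5691559-5692028) had a signal of 397 pooled, 268 in replicate 1 and 120 in replicate 2, and its summit lay 291 bp upstream of unc-40. It ranked 473 in the pooled list, 478 in replicate 1 and 680 in replicate 2. The same summit was in the promoter window of npp-7, a nucleoporin gene, so the peak cannot be assigned to unc-40 alone. It was the only one of the 9 promoter summits in a second gene's window (11.1%), beside 258 of all 913 promoter summits (28.3%).

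At the other receptors the summits were upstream or in introns. The Robo gene sax-3 had 3 upstream summits, at 1577, 3583 and 4937 bp from the 5′ end. Their pooled signals were 275, 341 and 279, the replicate 1 signals were 185, 239 and 228, and the replicate 2 signals were 110, 96.9 and 42.4. The farthest ranked 10377 in replicate 2, while the other two were in the strongest regions of both replicates. The second netrin receptor gene, unc-5, had a summit in its first intron, which is 11991 bp long. It lay 1260 bp downstream of the nearest 5′ end (signal 262 pooled, 183 in replicate 1, 74.6 in replicate 2). The Eph receptor gene vab-1 had one in intron 4, 9012 bp from the 5′ end (signal 248 pooled, 195 and 76.8 in the replicates). Both ranked beyond 1925 in replicate 2, at 2257 and 2080. The plexin gene plx-1 had a summit 1517 bp upstream (signal 291 pooled, 187 and 109), found in both replicates. The LAR-type receptor phosphatase gene ptp-3 had a pair of summits in intron 13, which is 7858 bp long, 2671 and 3981 bp upstream of an internal 5′ end, with pooled signals of 350 and 268. The replicate signals were 247 and 104 for the nearer one and 152 and 124 for the farther, and both were in the strongest regions of each replicate.

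The cytoplasmic effectors held the strongest summits, and 10 of 13 genes had one within 5 kb, beside 16.8% of all genes. The highest was at unc-115, which encodes an actin-binding protein of the abLIM type. Its peak (chrX:10146560-10146812) had a signal of 696 pooled, 494 in replicate 1 and 194 in replicate 2, and its summit lay 196 bp upstream of the 5′ end. It ranked 122 in the pooled list, 96 in replicate 1 and 222 in replicate 2, the best rank of the 45 summits in the pooled list. A second summit in the window lay 7 bp inside the gene (chrX:10146664-10147133), with a signal of 314 pooled, 226 in replicate 1 and 91.9 in replicate 2, and both peak intervals overlapped. Another summit, 1628 bp upstream and within 200 bp of a tRNA gene, had a signal of 238 pooled.

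The FEZ-type kinesin adaptor gene unc-76 had a promoter summit 345 bp upstream of its 5′ end (chrV:15071180-15071649), with a signal of 317 pooled, 238 in replicate 1 and 75.8 in replicate 2. Its rank was 612 in replicate 1 and 2151 in replicate 2, so it was lost when replicate 2 stood alone. The sequence within 50 bases of each summit is given for unc-115, the strongest of the 45, and for unc-76, whose window holds a repeat of TC, on the plus strand of WBcel235 (RefSeq). Capitals mark the letters GAGAGA or GGGCGG read on either strand.

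unc-115, chrX:10146646-10146746: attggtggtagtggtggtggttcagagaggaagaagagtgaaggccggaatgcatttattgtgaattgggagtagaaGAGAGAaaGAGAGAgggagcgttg
unc-76, chrV:15071365-15071465: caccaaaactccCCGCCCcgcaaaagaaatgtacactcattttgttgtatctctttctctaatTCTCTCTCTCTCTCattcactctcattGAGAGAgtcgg

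Promoter summits at the RUN-domain gene unc-14 and the Trio-type exchange factor gene unc-73 were found in both replicates. That of unc-14 (chrI:7128061-7128530) lay 50 bp upstream of the 5′ end, with a signal of 332 pooled, 220 in replicate 1 and 128 in replicate 2. That of unc-73 (chrI:4032405-4032874) lay 901 bp upstream, with a signal of 346 pooled, 217 in replicate 1 and 122 in replicate 2. Their ranks stayed between 575 and 763 in the pooled list and in each replicate. A second summit at unc-73, in intron 20, was weak (signal 215 pooled, 123 and 82.3 in the replicates). Its nearest 5′ end, 351 bp away, was that of another gene, F55C7.2.

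The remaining effectors had intron or upstream summits. The gene unc-33, which encodes a CRMP protein that axons need for microtubule organisation, had the strongest intron summits. One in intron 7, 2195 bp downstream of the nearest 5′ end, had a signal of 481 pooled, 278 in replicate 1 and 208 in replicate 2. The other, in intron 9, had a signal of 561 pooled, 389 and 176 in the replicates, and lay within 200 bp of a tRNA gene. Its nearest protein-coding 5′ end, 2520 bp away, was that of another gene, M57.2, while the nearest of unc-33 was 5150 bp away. The ankyrin gene unc-44 had a summit 1136 bp upstream of its outermost 5′ end (signal 260 pooled, 150 and 105 in the replicates) and one inside an exon (signal 250 pooled, 189 and 59.3). That exon summit was the only one of the 45 that fell in an exon outside the promoter window, and its replicate 2 rank was 4305.

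The Ena/VASP gene unc-34 had a pair of summits 2911 and 3856 bp upstream (pooled signals 230 and 243), both nearer to the 5′ end of Y50D4C.12. The NAV gene unc-53 had a summit in its first intron, 1089 bp downstream of the nearest 5′ end (signal 250 pooled, 156 and 91.6 in the replicates). The lamellipodin-type gene mig-10 had an intron 3 summit 1765 bp upstream of an internal 5′ end (signal 242 pooled, 164 and 84.8) and an intron 5 summit (signal 230 pooled, 169 and 67.8). The TRIM gene madd-2 had one in an intron of 48 bp (signal 239 pooled, 154 and 81.2), shorter than the peak itself. The summits of unc-53 and madd-2 were in the strongest regions of both replicates. No summit lay within 5 kb of unc-51 (an ULK-type kinase), ced-10 (Rac) or mig-2 (a Rac-like GTPase), whose nearest were 57.2, 12.4 and 56.4 kb away.

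Of 5 immunoglobulin adhesion genes, the L1-type genes sax-7 and lad-2 had summits, beside 17% of all genes. The promoter summit of sax-7 (chrIV:8066442-8066911) lay 188 bp upstream of an internal 5′ end, inside intron 4 of the longest transcript. Its signal was 318 pooled, 230 in replicate 1 and 104 in replicate 2, with ranks of 787, 664 and 985. A second sax-7 summit in intron 5 had a signal of 257 pooled, 203 in replicate 1 and 51.9 in replicate 2, the last from a region 170 bp away. With the outermost 5′ end of each gene alone, sax-7 no longer counted as having a promoter summit. The summit at lad-2 lay 3161 bp upstream (signal 291 pooled, 223 and 70.6 in the replicates) and ranked 2603 in replicate 2. The nearest summits of syg-1, syg-2 (a ligand and receptor pair for synapse placement) and rig-6 (contactin) were 19.2, 10.1 and 39.7 kb away.

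Cadherin genes had summits at 5 of 6, beside 17% of all genes. The Fat-type cadherin gene cdh-4 had a promoter summit 763 bp upstream (chrIII:4519359-4519828), with a signal of 324 pooled, 241 in replicate 1 and 81.7 in replicate 2, and ranks of 757, 594 and 1765. The classical cadherin gene hmr-1, the longest of the 46 at 58.9 kb, had 4 intron summits, the most at 1 gene. Of these, 3 lay upstream of their nearest internal 5′ end, which was not the same end for all 3. Those at 1408 and 3825 bp were in intron 21, with pooled signals of 372 and 230. That at 1595 bp was in intron 22 (signal 244), and the fourth was in the first intron (signal 259). All 4 were in the strongest regions of both replicates. The dachsous-type gene cdh-1 had a pair in its first intron, 828 and 2182 bp downstream of the 5′ end. The farther was the stronger, with a signal of 389 pooled, 233 in replicate 1 and 149 in replicate 2, against 215, 120 and 91.2 for the nearer.

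The Flamingo-type gene fmi-1 had a summit in intron 4 (signal 231 pooled, 124 and 104 in the replicates). That of cdh-9, 4261 bp upstream, had a signal of 427 pooled, 299 in replicate 1 and 120 in replicate 2, and was within 200 bp of a tRNA gene. The nearest summit of cdh-3 was 24.8 kb away. Of the 45 summits, 3 (6.67%) were within 200 bp of a tRNA, snoRNA, snRNA or miRNA gene, beside 15% of all optimal summits. Without such summits, cdh-9 dropped out of the genes with one within 5 kb, leaving 26.

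Of 4 matrix and proteoglycan genes, sdn-1 and dgn-1 had summits, beside 17% of all genes. The syndecan gene sdn-1 had a promoter summit 616 bp upstream (chrX:10593715-10594184), the weakest of the 9, with a signal of 259 pooled, 193 in replicate 1 and 65.1 in replicate 2. It ranked 1239 in the pooled list and 3287 in replicate 2. A stronger summit 4445 bp upstream of sdn-1 had a signal of 385 pooled, 262 in replicate 1 and 136 in replicate 2, and ranked close to 500 in each, at 501, 500 and 509. The dystroglycan gene dgn-1 had a first-intron summit 2607 bp upstream of an internal 5′ end (signal 330 pooled, 210 and 121). The nearest summits of nid-1 (nidogen) and gpn-1 (glypican) were 12.9 and 25.9 kb away.

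**Figure D4:**
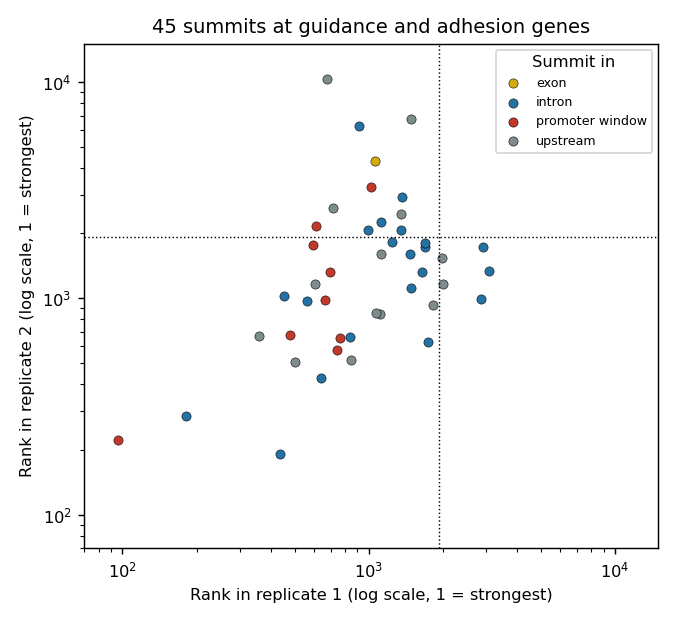
Rank by signal in replicate 1 (x axis, log scale) and replicate 2 (y axis, log scale) of the region nearest to each of the 45 summits, coloured by place, with dotted lines at rank 1925. The best rank in replicate 1 is that of the unc-115 promoter summit, at 96 (222 in replicate 2). The best rank in replicate 2 is that of the unc-33 intron 7 summit, at 190 (436 in replicate 1). The highest point on the y axis is the farthest sax-3 summit, at 10377.

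Promoter summits at these genes were stronger than their intron summits in the pooled list. The 9 promoter summits had a median signal of 324 and 8 of them were among the 962 strongest of the optimal list. The 22 intron summits, which include the sax-7 promoter summit, had a median of 253 and 7 of them were among those 962 (31.8%). Counted by gene, 7 of the 8 with a promoter summit and 6 of the 14 with an intron summit kept one among those 962. Over all genes, 618 of 1126 kept a promoter summit and 234 of 453 an intron summit. The difference was not tested. All 45 summits had a median of 268, beside 290 for the 1925 optimal peaks. Of the intron summits, 8 lay upstream of the nearest 5′ end of their own gene, which was an internal one. They were 3 at hmr-1, 2 at ptp-3 and 1 each at sax-7, mig-10 and dgn-1. Of the 22 intron summits, 7 lay in the first intron. Of the 43 summits within 5 kb, 40 had a member of the 46 as the gene with the nearest 5′ end. The same share was not taken for other genes. The 46 had longer upstream stretches and more 5′ ends than most, so the count does not assign these summits to them.

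The letters at the summits were sought within 50 bp on either side, on both strands. GAGAGA was at 11 of 45 summits (24.4%), beside 24.9% of all optimal summits. Within the 45 it was at 5 of 9 promoter summits (55.6%) and at 3 of 22 intron summits (13.6%). The same shares were not taken over all promoter or all intron summits, so this split cannot be called particular to these genes. TAATTA, the general homeodomain core, was at 6 of 45 summits (13.3%), beside 3.64% of all, at cdh-1, cdh-4, fmi-1, hmr-1, sax-3 and vab-2. CAATTA was at 4 of 45 (8.89%), beside 5.82%, and the longer CAATTAA, which contains it, at the unc-53 intron summit alone, beside 1.71% of all. GGGCGG was at 7 of 45 (15.6%), beside 9.51%. G and C made up a mean of 47.9% (SD 7.06, n = 45) of these windows, beside 49.5% (SD 7.67, n = 1925). A match is not a measured binding site, and these shares were not tested.

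Of the summits with a homeodomain core, 4 are given next as sequence, with the sax-7 and sdn-1 promoter summits for comparison. Each sequence is the summit base with 50 bases on either side, on the plus strand of WBcel235 (RefSeq), and capitals mark the 5 motifs just named, read on either strand. Those of unc-33, unc-53 and cdh-1 lie in introns and were picked after their values were seen. The cdh-1 sequence is that of its farther summit, and the sax-7 window holds none of the 5 motifs.

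unc-53, chrII:11088276-11088376: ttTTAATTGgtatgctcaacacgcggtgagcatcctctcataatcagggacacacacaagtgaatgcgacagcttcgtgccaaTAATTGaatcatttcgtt
unc-33, chrIV:3521829-3521929: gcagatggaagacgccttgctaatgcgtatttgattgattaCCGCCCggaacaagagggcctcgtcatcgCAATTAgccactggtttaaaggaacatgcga
cdh-1, chrIII:2913038-2913138: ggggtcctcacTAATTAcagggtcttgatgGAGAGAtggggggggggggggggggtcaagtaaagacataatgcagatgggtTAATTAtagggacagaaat
cdh-4, chrIII:4519544-4519644: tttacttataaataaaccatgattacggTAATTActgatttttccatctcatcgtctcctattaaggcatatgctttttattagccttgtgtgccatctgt
sax-7, chrIV:8066627-8066727: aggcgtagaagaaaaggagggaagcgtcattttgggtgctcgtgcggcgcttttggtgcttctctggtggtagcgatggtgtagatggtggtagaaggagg
sdn-1, chrX:10593900-10594000: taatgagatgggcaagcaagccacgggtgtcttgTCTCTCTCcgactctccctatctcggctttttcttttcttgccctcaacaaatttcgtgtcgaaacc

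On the X chromosome, 2 of 12 guidance and adhesion genes (16.7%, interval 2.09 to 48.4) had a promoter summit, unc-115 and sdn-1, and on the autosomes 6 of 34 did (17.6%, interval 6.76 to 34.5). For all protein-coding genes the shares were 7.95% on X and 5.27% on the autosomes. Within 5 kb the counts were 6 of 12 on X and 21 of 34 on the autosomes (61.8%), beside 22.9% and 15.9% of all genes. Intron summits were at 1 of 12 genes on X, dgn-1, and at 13 of 34 on the autosomes (38.2%), beside 3.63% and 2.05% of all genes. The intervals of X and autosomes overlapped in each of these 3 places, and the difference was not tested.

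Weaker regions of the pooled list filled in more of the genes. With the 3850 strongest pooled regions, 15 of 46 genes (32.6%) had a summit in the promoter window, beside 9.38% of all genes. The 7 added were vab-2 (rank 2298), mab-20 (2337), mig-10 (2656), unc-34 (2684), madd-2 (3290), ptp-3 (3711) and hmr-1 (3781). With all 30000 regions the promoter count was 36 (78.3%), beside 33.3%, and the count within 5 kb was 43 (93.5%), beside 67.1%. Intron summits went from 14 genes at 1925 regions to 25 at 3850 (54.3%, beside 4.38%) and 39 at 30000 (84.8%, beside 22.7%). For sax-3, unc-129, efn-2, efn-3, plx-2, unc-51, rig-6, cdh-3, cdh-9 and nid-1 the pooled list held no promoter region. The deposited file descriptions name this list peaks and background, so its weaker regions are no calls of binding.

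**Figure D5:**
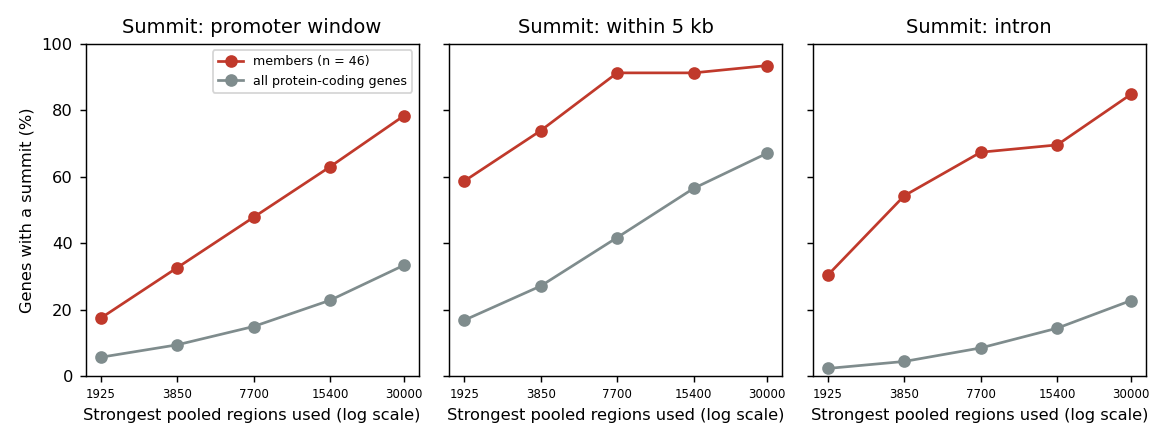
Share of genes (%) with a summit in the promoter window, within 5 kb and in an intron as more regions of the pooled list are used, from the 1925 strongest to all 30000 (x axis, log scale), for the 46 guidance and adhesion genes (red) and all protein-coding genes (grey). The promoter share goes from 17.4% to 78.3% for the 46 genes and from 5.64% to 33.3% for all genes.

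A further 84 guidance, adhesion and matrix genes had shares between those of the 46 genes and all genes. Promoter summits were at 13 of them (15.5%, interval 8.51 to 25), summits within 5 kb at 31 (36.9%) and intron summits at 10 (11.9%). The 13 included hst-6 (signal 404) and hst-2 (224), heparan sulfate sulfotransferase genes, vang-1 (367), a planar polarity gene, and unc-60 (326), a cofilin gene. The α-catenin gene hmp-1 (signal 311), the WAVE complex genes wve-1 (289) and gex-3 (212) and the apical junction gene ajm-1 (276) also had one. The others were eva-1 (262), a Slit co-receptor gene, igcm-3 (258) and zig-1 (222), immunoglobulin-domain genes, lam-2 (219), a laminin chain gene, and sax-1 (215), a kinase gene. Of the 13, those of hst-6, vang-1, unc-60, hmp-1, wve-1, ajm-1 and igcm-3 were in the strongest regions of both replicates. Those of hst-6, unc-60, wve-1 and sax-1 also lay in the promoter window of a neighbouring gene.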

How the data were processed

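ChIP-seq peak lists in narrowPeak format were used for 2 biological replicates of 1 group. Per the deposited file descriptions, the authors made each replicate list and a pooled list, with 30000 regions each, from the alignments and a control alignment as input for IDR, and made the optimal list from these 3 lists. Names and versions of the caller and aligner, and the threshold on IDR, were not in the sources used here. The signal per peak is the authors' value of unstated scaling. The authors' −log10 q value was not used, because 1772 of the 1925 optimal peaks share its ceiling of 3.55. The 1925 optimal peaks were the same regions as the 1925 of highest signal in the pooled list.

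Summits (column 2 plus column 10) were placed on the Ensembl release 115 annotation of WBcel235, which is ce11, with Python 3.11.15, pandas 2.3.3, numpy 2.4.6 and scipy 1.17.1. An intron summit lay inside a protein-coding transcript of the gene and in no exon of it. Replicate matching used 100 bp, and the strongest regions of a replicate's list were as many as the optimal peaks. Region sequences came from the RefSeq copy of WBcel235, and all peaks fitted its chromosome lengths. No fit or test across genes was made, since the series has 1 group. The window rules were checked on planted summits with known answers. The ce10 lists were not used. Of 85 further genes listed, 84 matched (enu-3 did not). Every member with a summit is named. Sequences were printed for promoter summits outside chromosome I that overlap no exon, plus 3 intron summits. The members, role groups and lists were chosen with earlier results of these data known. Alternatives were the 962 strongest peaks of the list, each replicate alone, leaving out summits near small RNA genes, interval overlap, other windows and other 5′ ends.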

Additional observations from a re-analysis of the deposited data

How the results depend on the processing

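Window size set the promoter count. It was 5 of 46 with 500 bp upstream (unc-73, cdh-4 and sdn-1 lost), 14 with 2000 bp and 26 when each summit went to the nearest 5′ end within 5000 bp. The shares of all genes were then 4.21%, 7.88% and 7.63%. In the 962 strongest optimal peaks 6 genes had an intron summit, beside 1.17% of all genes. Unlike these, the other 22 alternatives kept the counts within 1.5 times. With 1 replicate left out, the promoter count was 7 to 8, the count within 5 kb 24 to 29 and the intron count 14 to 16. With 2000 bp upstream, 3 of 12 genes on X had a promoter summit, beside 11.0% of all X genes, and 11 of 34 on the autosomes (32.4%), beside 7.38%. Summits found in both replicates numbered 22 at 50 bp and 28 at 200 bp. Depth is unknown, so a missing summit may be one under the threshold.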

Other observations

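Single replicates placed summits at guidance genes that the optimal list did not. By place, 1 of the 46 genes gained a promoter summit this way, 4 one within 5 kb and 5 an intron summit. Over all 19973 protein-coding genes the counts were 262, 761 and 140. The Rac-like gene mig-2 had a summit 1773 bp upstream of a 5′ end in replicate 1, with a signal of 269 and rank 473. That is close to the replicate 1 signal of the unc-40 promoter summit (268, rank 478). The nearest regions to it were 1069 bp away in the pooled list and 1016 bp away in replicate 2. The ephrin gene efn-4 had a replicate 1 intron summit of rank 1174 and signal 180, whose nearest region in replicate 2 ranked 29162. The pooled region 14 bp from that summit ranked 2221, with a signal of 198. The contactin gene rig-6 had a replicate 2 intron summit of rank 1800 and signal 81.1, ranking 4244 in replicate 1 and 2616 in the pooled list. The promoter window of mig-10 held a replicate 2 summit of rank 1461, which ranked 4301 in replicate 1. The others were vab-1, within 5 kb in replicate 2, and introns of sax-3 and unc-44 in replicate 1 and of unc-34 in replicate 2.

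A run of 10 or more G or C was within 50 bp of 3 of the 45 summits (6.67%), at cdh-1, sax-7 and slt-1, beside 50 of 1925 optimal summits (2.60%). This was looked for after the cdh-1 sequence was seen.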
